A study of Mus musculus with 16 samples.

Results

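The interleukin-6 family comprises the cytokines that act through the shared receptor subunit Il6st, together with the receptors that bind them. The 10 genes described here were chosen by family membership and not by a threshold on any measured value: the ligands Lif, Il6, Il11 and Osm, the ligand-binding receptors Lifr, Il6ra, Il11ra1 and Osmr, the shared subunit Il6st, and the transcription factor Stat3. They are 10 of 25860 genes tested on the same arrays, and all 10 entered the tests, through 13 probes. Because the set was proposed with earlier results of these arrays known, its counts and medians describe these arrays and are not independent support for a pattern.

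Ligands of the family bring Il6st together with a second receptor chain, the receptor-bound Janus kinases then phosphorylate Stat3, and Stat3 enters the nucleus and switches on its targets, among them the inhibitor Socs3. In the mouse uterus, Lif is produced by the glands around the time of implantation, is induced by estrogen, and is required in the mother for the embryo to implant. Il11 acts through Il11ra1 in the stroma, and decidual growth fails in mice that lack that receptor.

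All mice had their ovaries removed when 4 weeks old and were treated 2 to 3 weeks later, and RNA of the uterus was hybridised to 16 arrays, 1 for each sample and 4 for each group. Arg260 E2 were mice of the genotype labelled Arg260-ERα, given 8 µg/kg of estradiol (E2) in castor oil under the skin and sampled 6 h later, and Arg260 PLB were mice of that genotype given castor oil with 0 µg/kg (PLB). WT E2 and WT PLB were wild-type mice given the same treatments. ERα is the estrogen receptor encoded by Esr1; the labels do not say how its Arg260 was changed, nor which samples, if any, shared an animal, so p-values measure only the spread between these samples. Between 36505 and 41890 spots per array were well above background by the scanner software's flags and 0 were saturated. Arrays of 1 group had gene-wide correlations of 0.980 to 0.993. E2 and PLB arrays parted on the leading principal component (71.8% of the variance), while Arg260 PLB replicate 3 and WT PLB replicate 2 stood apart on the next (5.12%). Without these 2 arrays the same number of members, 7 of 10, was called for the E2 effect in either genotype (an alternative chosen after seeing the data). Markers of uterine epithelium (7 of 7), stroma (6 of 6), smooth muscle (5 of 5) and endothelium (5 of 5) were well above background on all 16 arrays and of 4 glandular markers 1 was, Foxa2. In a whole organ, fewer cells of a type and less RNA per cell cannot be told apart.

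Values are log2 of a probe's signal minus log2 of its array's 75th percentile, so 0 is the level of the 75th percentile and each unit is a doubling. Levels are compared between groups for 1 probe, never between probes. A gene was called where limma's test, adjusted by Benjamini-Hochberg over all 25860 genes, gave an adjusted p under 0.05.

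E2 moved most of the family in both genotypes. In Arg260 uteri, 6 members were called higher (Lif, Il6, Il11, Osmr, Il6st and Stat3) and 1 lower (Lifr), although Il6st changed sign under quantile normalization of the arrays, with 5 members then called higher and 1 lower. The same 6 and 1 members were called in WT uteri, where quantile normalization gave 5 higher and 3 lower, Il6st among the lower. The backgrounds are large: 64.3% of all genes were called in Arg260, 33.6% higher and 30.7% lower, and 63.5% in WT, 31.9% higher and 31.7% lower. A count of 7 of 10 is therefore near the share of genes called anywhere, and it includes Il6, whose PLB readings were all below the background limit. The median log2 change of the 10 members was 1.1 in Arg260 and 1.01 in WT, beside 0.02 and -0.02 over all genes. In either genotype the ranges of the 4 E2 and the 4 PLB arrays did not overlap for those 7 members, as for 58.7% of all genes in Arg260 and 59.1% in WT.

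**Figure D1:**
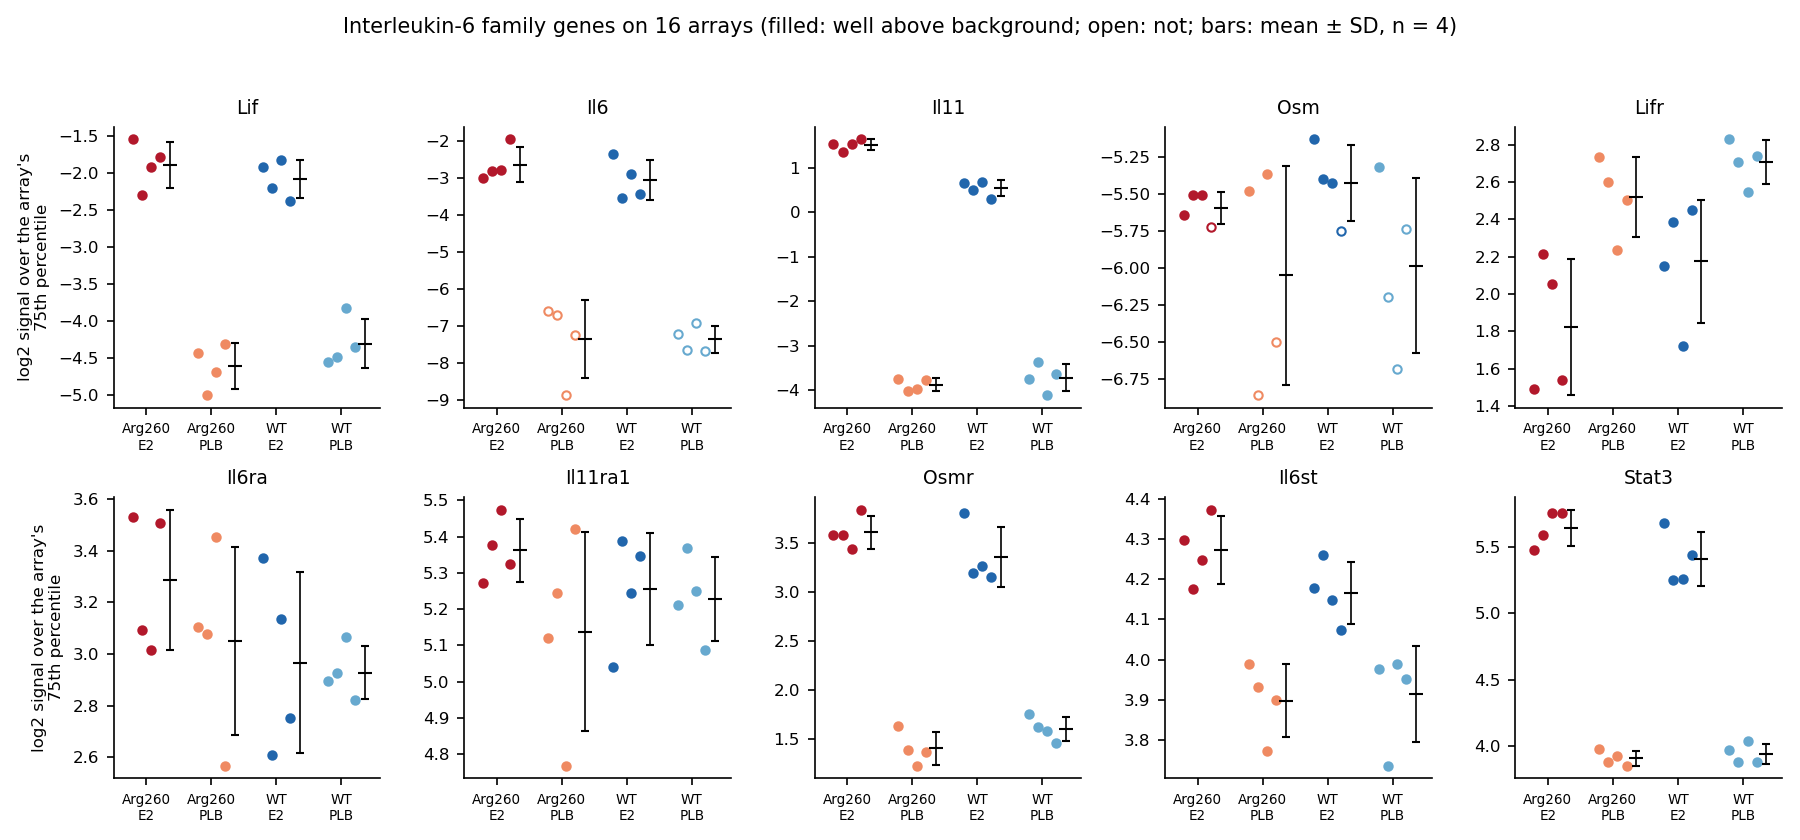
Log2 signal over the array's 75th percentile (y axis, own scale for each gene) of the 10 genes on the 16 arrays, by group (x axis: Arg260 E2, Arg260 PLB, WT E2, WT PLB); filled points were well above background, open points were not, and the bars give the mean ± SD of 4 arrays. E2 arrays lie apart from PLB arrays in both genotypes for Lif, Il6, Il11, Osmr and Stat3; the gap of Il6st turned round under quantile normalization, and Il11 alone also separates Arg260 E2 (1.34 to 1.63) from WT E2 (0.30 to 0.69).

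Of the promoters of the members, 4 are shown because they hold a match to TGANTCA, 1 of 5 motifs searched. The choice was made after the matches and the E2 changes were seen, so it supports nothing about the members that rose. RefSeq (build GRCm38.p6) gave promoters of 300 bases, 250 before and 50 from the transcription start, for 9 of the 10 genes, 12 promoters in all, Il11, Lifr and Il11ra1 having 2 each. The motif TGANTCA, which binds the AP-1 factors of the Fos and Jun families, was searched on both strands, as were the other 4 motifs. It is set in capitals in the sequences, written 5′ to 3′ on the gene's strand.
Lif promoter, chr11:4257318-4257617, plus strand: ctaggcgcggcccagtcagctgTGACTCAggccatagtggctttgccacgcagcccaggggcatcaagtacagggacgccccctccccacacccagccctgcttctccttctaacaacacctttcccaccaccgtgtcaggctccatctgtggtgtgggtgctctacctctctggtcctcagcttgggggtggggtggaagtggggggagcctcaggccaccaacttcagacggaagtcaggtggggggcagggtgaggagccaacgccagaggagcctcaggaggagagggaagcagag
Il6 promoter, chr5:30012864-30013163, plus strand: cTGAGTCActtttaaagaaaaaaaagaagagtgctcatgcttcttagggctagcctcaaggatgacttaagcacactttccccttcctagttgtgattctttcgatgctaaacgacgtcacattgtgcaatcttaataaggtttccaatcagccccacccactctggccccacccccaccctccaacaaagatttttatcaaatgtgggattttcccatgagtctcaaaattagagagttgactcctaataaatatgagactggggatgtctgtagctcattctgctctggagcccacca
Il11 promoter, chr7:4778092-4778391, minus strand: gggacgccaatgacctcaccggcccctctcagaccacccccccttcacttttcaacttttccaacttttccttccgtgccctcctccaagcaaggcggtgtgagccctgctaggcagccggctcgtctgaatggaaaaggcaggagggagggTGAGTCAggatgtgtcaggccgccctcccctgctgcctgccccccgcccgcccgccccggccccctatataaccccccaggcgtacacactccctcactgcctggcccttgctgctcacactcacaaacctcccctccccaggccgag
Osmr promoter, chr15:6874264-6874563, minus strand: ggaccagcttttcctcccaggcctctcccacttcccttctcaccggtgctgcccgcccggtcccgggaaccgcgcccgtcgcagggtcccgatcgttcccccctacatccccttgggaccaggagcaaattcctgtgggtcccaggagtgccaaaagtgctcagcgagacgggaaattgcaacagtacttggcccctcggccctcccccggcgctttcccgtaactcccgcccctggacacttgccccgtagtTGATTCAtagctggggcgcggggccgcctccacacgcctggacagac
The match begins at -228 in Lif, -249 in Il6, -98 in this Il11 promoter and 4 in Osmr, counting the first transcribed base as 1. The other 8 promoters, including the second of Il11 (chr7:4782808-4783107), held no match, and 7.81% of 32851 mouse promoters of this length hold one. None of the 12 held the Stat motif TTCNNNGAA, present in 8.30% of all promoters, or the palindromic estrogen response element, present in 0.0700%. The TATA box TATAAA, present in 13.6% of all promoters, was found in 0 of the 12. The GC box GGGCGG, present in 35.7% of all promoters, was found in 8 of the 12: both of Il11, both of Il11ra1, 1 of Lifr, and those of Osmr, Il6st and Stat3. These are matches of letters in 1 window; binding was not measured.

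Il11, the cytokine of decidual growth, showed the largest response of the 9 members measured in both treatments. In Arg260 uteri its log2 values were 1.54, 1.34, 1.54 and 1.63 after E2 and -3.73, -4.01, -3.97 and -3.76 after PLB. In WT uteri they were 0.66, 0.49, 0.69 and 0.30 after E2 and -3.75, -3.36, -4.10 and -3.62 after PLB. Every E2 array was far above every PLB array, and the 4 Arg260 E2 arrays were above the 4 WT E2 arrays, while the PLB groups overlapped. E2 raised Il11 by 5.38 log2 units in Arg260 (SE 0.14, 41.7-fold, adjusted p = 4.81e-12), the seventh smallest p of all genes, and by 4.24 in WT (SE 0.14, 19-fold, adjusted p = 2.20e-11). Over 30 alternatives the change ran from 4.49 to 5.52 in Arg260 and from 3.50 to 4.39 in WT.

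Lif, the implantation cytokine, rose in every E2 sample of both genotypes. Its log2 values in Arg260 uteri were -1.55, -2.30, -1.92 and -1.79 after E2 and -4.43, -5.00, -4.69 and -4.31 after PLB. WT uteri had -1.92, -2.20, -1.83 and -2.38 after E2 and -4.55, -4.48, -3.82 and -4.35 after PLB. The E2 and PLB ranges were separate in each genotype, and the genotypes overlapped within each treatment. The change was 2.71 log2 units in Arg260 (SE 0.20, 6.56-fold, adjusted p = 2.74e-08) and 2.22 in WT (SE 0.20, 4.65-fold, adjusted p = 2.31e-07). Background correction with normexp and quantile normalization gave 1.74 and 1.47.

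Il6, the inflammatory cytokine that names the family, was not well above background on any PLB array and was measured on all 8 E2 arrays. After E2 its log2 values were -3.01, -2.83, -2.80 and -1.96 in Arg260 and -2.37, -3.55, -2.90 and -3.45 in WT. The PLB readings, below the background limit, were -6.59, -6.70, -8.87 and -7.26 in Arg260 and -7.21, -7.66, -6.92 and -7.67 in WT. Il6 after E2 was set against the lowest signal counted as well above background on each PLB array. It was 12.7-fold higher in Arg260 (adjusted p = 2.57e-07) and 8.98-fold higher in WT (adjusted p = 6.78e-07). The change was smaller under other processing, so these folds are not lower limits. Il6 passed the filter on dim probes only through its E2 arrays, so a difference was built into its selection. Both adjusted p-values come from the fit, rest on PLB readings below background and are given as a description. The fitted log2 change, 4.70 in Arg260 and 4.30 in WT, was 2.69 and 2.35 in the authors' deposited log2 table and 1.76 and 1.5 with normexp and quantile normalization.

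Osm, a ligand that macrophages and neutrophils make, sat at the edge of detection: it was well above background on 9 of 16 arrays. Its log2 values ran from -5.72 to -5.50 in Arg260 E2, from -6.86 to -5.36 in Arg260 PLB, from -5.75 to -5.13 in WT E2 and from -6.68 to -5.31 in WT PLB. These ranges overlap. The fitted changes of 0.46 in Arg260 (95% interval -0.24 to 1.16, adjusted p = 0.238) and 0.56 in WT (-0.14 to 1.26, adjusted p = 0.152) did not pass; in the authors' deposited table they were 0.34 and 0.33 and did, at adjusted p = 0.0349 and 0.0386.

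Osmr, the oncostatin M receptor chain that pairs with Il6st, rose more than any other receptor of the set. Its log2 values in Arg260 uteri were 3.59, 3.59, 3.44 and 3.84 after E2 and 1.63, 1.39, 1.23 and 1.37 after PLB. WT uteri had 3.81, 3.20, 3.27 and 3.16 after E2 and 1.75, 1.62, 1.58 and 1.46 after PLB. The treatments were far apart in both genotypes, and WT E2 replicate 1 lay above its 3 companions. The change was 2.21 log2 units in Arg260 (SE 0.14, 4.63-fold, adjusted p = 5.21e-09) and 1.75 in WT (SE 0.14, 3.37-fold, adjusted p = 5.51e-08).

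Lifr, the receptor chain that binds Lif and pairs with Il6st, went down on the probe that stands for it. That probe (A_55_P2159259, chr15:7147319-7147378 on mm9) had log2 values of 1.49, 2.22, 2.05 and 1.54 in Arg260 E2, against 2.74, 2.60, 2.23 and 2.51 in Arg260 PLB. WT uteri had 2.15, 2.38, 1.72 and 2.45 after E2, against 2.83, 2.70, 2.55 and 2.74 after PLB. The ranges do not overlap within a genotype, and the gap is narrow in Arg260. The change was -0.69 log2 units in Arg260 (SE 0.19, a ratio of 0.618, adjusted p = 0.00421) and -0.53 in WT (SE 0.19, a ratio of 0.693, adjusted p = 0.0216).

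The other 2 Lifr probes did not pass the test. Probe A_51_P113182 (chr15:7141150-7141209) had changes of -0.39 in Arg260 (95% interval -0.84 to 0.06) and -0.17 in WT (-0.62 to 0.28), intervals that include the fall of the first probe, and probe A_55_P2159264 (chr15:7135072-7135131) had 0.33 (-0.12 to 0.78) and 0.15 (-0.30 to 0.60), none of them called. The last is printed because its mean ran the opposite way. It lies furthest upstream of the 3 on the gene's plus strand and is annotated to another Lifr transcript than the other 2.
Lifr probe A_55_P2159264: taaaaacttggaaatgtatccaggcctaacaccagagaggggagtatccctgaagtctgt
Its log2 values were -1.01 to -0.46 in Arg260 E2, against -1.58 to -0.57 in Arg260 PLB, and -0.96 to -0.21 in WT E2, against -0.98 to -0.53 in WT PLB. The groups overlap, as they do on A_51_P113182, where E2 arrays spanned -3.34 to -2.60 in Arg260 and -3.08 to -2.02 in WT and PLB arrays -2.80 to -2.30 and -2.45 to -2.26. With the mean of the 3 probes the Lifr change was -0.25 in Arg260 (adjusted p = 0.249) and -0.18 in WT (adjusted p = 0.399). The call was also lost within slide 2 (adjusted p = 0.168 in Arg260 and 0.177 in WT), and in WT within slide 1 (0.134), with median scaling (0.0753), without WT PLB replicate 1 (0.0541) and without WT E2 replicate 3 (0.0769).

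**Figure D2:**
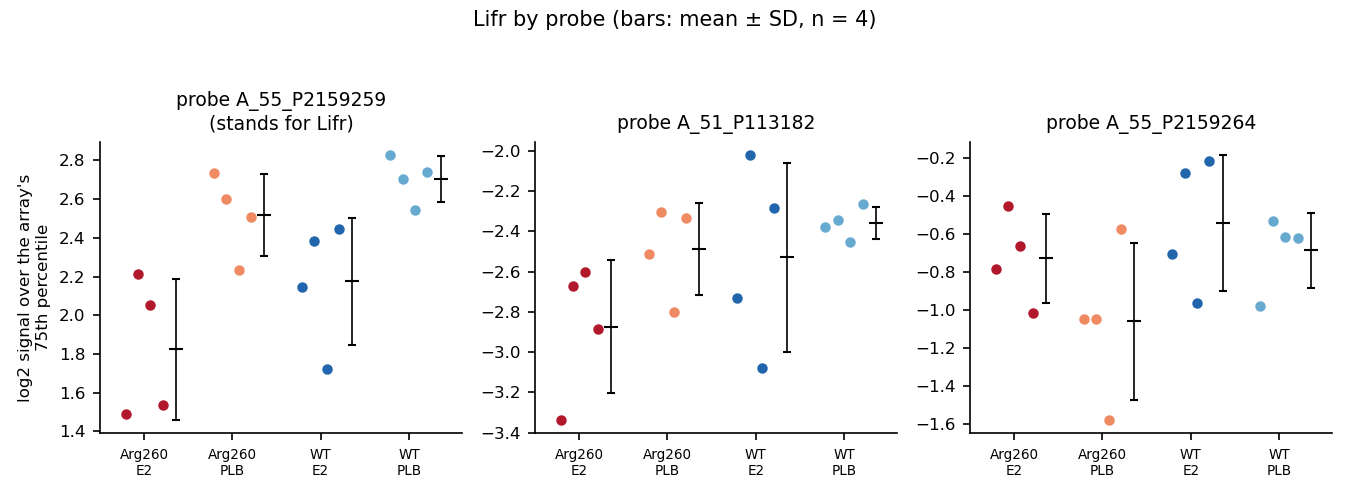
Log2 signal over the array's 75th percentile (y axis, own scale for each probe) of the 3 Lifr probes by group (x axis); points are the 4 arrays of a group and bars the mean ± SD. Only the left probe, which stands for the gene, has E2 arrays all below PLB arrays within a genotype; the right probe has its means 0.33 and 0.15 higher after E2 in Arg260 and WT.

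Il6ra and Il11ra1, the chains that bind Il6 and Il11, did not pass the test. Il6ra had log2 values of 3.02 to 3.53 in Arg260 E2, 2.57 to 3.46 in Arg260 PLB, 2.61 to 3.37 in WT E2 and 2.82 to 3.07 in WT PLB. Its change was 0.24 in Arg260 (95% interval -0.18 to 0.66) and 0.04 in WT (-0.38 to 0.46). Il11ra1 had 5.27 to 5.47 in Arg260 E2, 4.77 to 5.42 in Arg260 PLB, 5.04 to 5.39 in WT E2 and 5.09 to 5.37 in WT PLB. Its change was 0.22 in Arg260 (95% interval -0.04 to 0.49) and 0.03 in WT (-0.24 to 0.29), and neither sign was stable: quantile normalization gave -0.25 in Arg260 and -0.37 in WT, and the WT value was then called (adjusted p = 0.00727), whereas median scaling gave 0.36 in Arg260, called at adjusted p = 0.0203. The probe may also read Il11ra2, a near-identical copy that was not analysed here.

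Il6st, the shared signalling subunit, moved by less than any other called member, and its direction depended on the scaling. Its log2 values were 4.30, 4.17, 4.25 and 4.37 in Arg260 E2, against 3.99, 3.93, 3.77 and 3.90 in Arg260 PLB. WT uteri had 4.18, 4.26, 4.15 and 4.07 after E2, against 3.98, 3.74, 3.99 and 3.95 after PLB. On this scale every E2 array was above every PLB array of its genotype, by 0.38 log2 units on average in Arg260 (SE 0.08, adjusted p = 5.60e-04) and 0.25 in WT (SE 0.08, adjusted p = 0.0100), whereas quantile normalization gave -0.12 and -0.18 and the authors' deposited table -0.13 and -0.15. Within slides the call was lost in Arg260 on slide 1 (0.28, adjusted p = 0.0941) and in WT on slide 2 (0.14, adjusted p = 0.403).

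**Figure D3:**
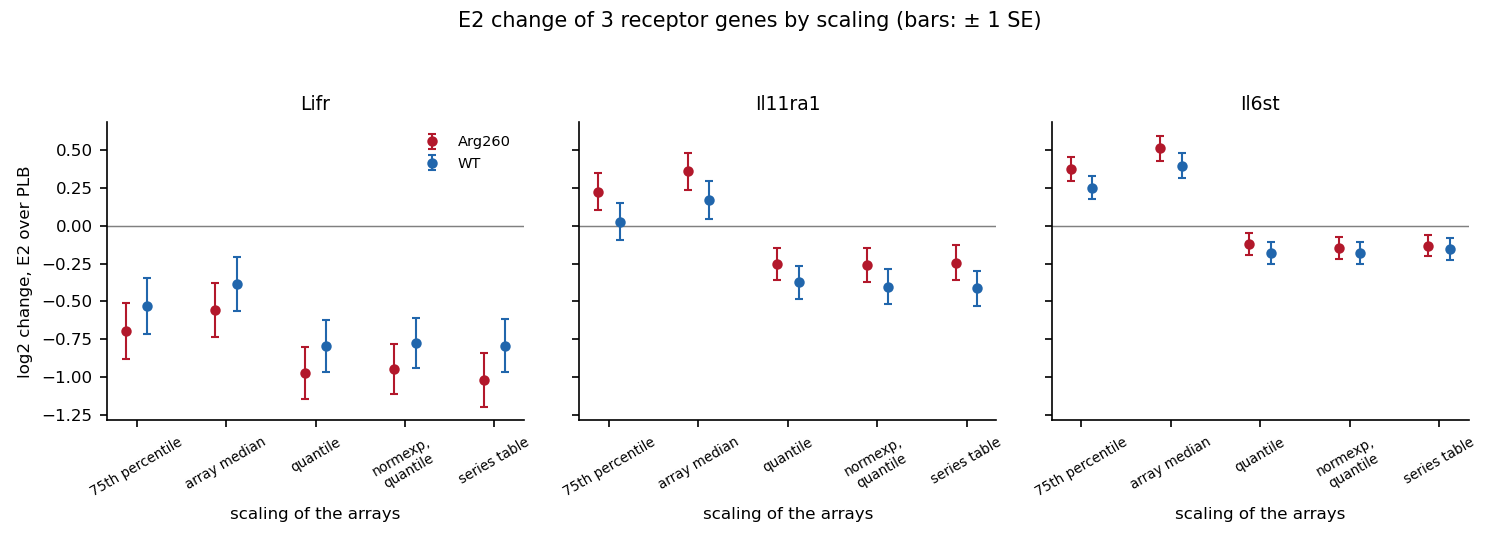
E2 change in log2 units (y axis, ± 1 SE of the fit) of Lifr, Il11ra1 and Il6st in Arg260 and WT under 5 ways of scaling the arrays (x axis). Lifr stays below 0 throughout; Il6st lies above 0 with the 75th percentile (0.38 and 0.25) or the median and below 0 with quantile normalization (-0.12 and -0.18), and Il11ra1 moves the same way.

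Stat3, the transcription factor downstream of the family, rose in every E2 sample. Its log2 values were 5.48, 5.59, 5.75 and 5.76 in Arg260 E2, against 3.98, 3.88, 3.92 and 3.85 in Arg260 PLB. WT uteri had 5.68, 5.25, 5.26 and 5.44 after E2, against 3.97, 3.88, 4.04 and 3.88 after PLB. The E2 and PLB ranges are more than 1 unit apart. The change was 1.74 log2 units in Arg260 (SE 0.10, 3.33-fold, adjusted p = 1.40e-09) and 1.47 in WT (SE 0.10, 2.76-fold, adjusted p = 7.47e-09). A second probe measured the same gene separately. Its log2 values were -0.53, -0.26, -0.05 and -0.14 in Arg260 E2, against -1.86, -1.81, -1.63 and -1.84 in Arg260 PLB, and -0.16, -0.65, -0.60 and -0.60 in WT E2, against -1.63, -1.75, -1.40 and -1.89 in WT PLB. As on the other probe, the E2 arrays all lay above the PLB arrays. It changed by 1.54 in Arg260 (adjusted p = 1.52e-07) and 1.17 in WT (adjusted p = 2.74e-06).

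**Figure D4:**
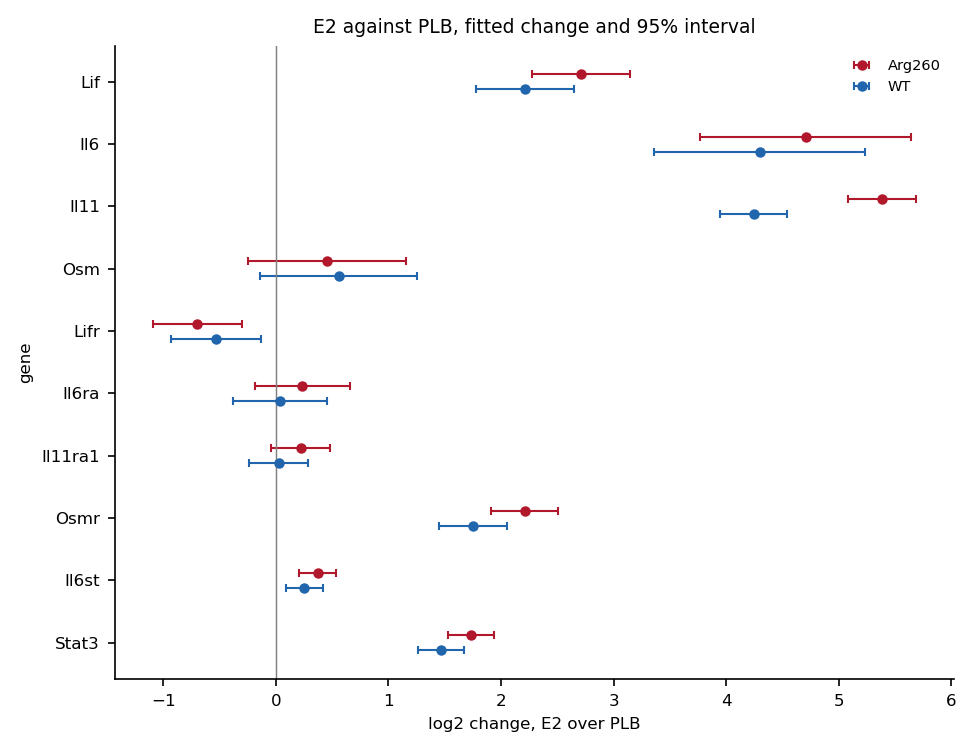
Fitted log2 change, E2 over PLB (x axis), of the 10 genes (y axis) in Arg260 and WT, with 95% intervals from limma over 16 arrays. Il11 (5.38 and 4.24), Il6, Lif, Osmr and Stat3 lie far to the right of 0, Lifr lies to the left, and Il6st lies just right of 0 on this scaling but left of it under quantile normalization; the Il6 values are fitted against readings below background.

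Ordered by group mean from high to low, Lif, Il11, Osmr and Stat3 all ran Arg260 E2, WT E2, WT PLB, Arg260 PLB. The PLB neighbours overlapped for all 4, and the E2 neighbours overlapped for all but Il11. Il6st and the uncalled Il11ra1 had the same order on this scaling, Il11ra1 with every pair of neighbours overlapping, and the sign of the E2 change of both turned under quantile normalization. Lifr ran WT PLB, Arg260 PLB, WT E2, Arg260 E2, with every pair of neighbours overlapping. Il6, Osm and Il6ra ran in other orders. Il6 ran Arg260 E2, WT E2, Arg260 PLB, WT PLB, with both PLB groups below background. Osm ran WT E2, Arg260 E2, WT PLB, Arg260 PLB, and Il6ra ran Arg260 E2, Arg260 PLB, WT E2, WT PLB. Every pair of neighbours overlapped for Osm and Il6ra.

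Fewer members were called between the genotypes than between E2 and PLB. After E2, 0 of the 10 members were called between Arg260 and WT, as were 0% of all genes, while 1900 genes (7.35%) and 2 members, Il11 and Stat3, had an unadjusted p under 0.05. Il11 was 0.98 log2 units higher in Arg260 E2 than in WT E2 (SE 0.14, 95% interval 0.68 to 1.28, 1.97-fold, unadjusted p = 5.94e-06, adjusted p = 0.0768), the second smallest p of all genes. The 2 groups' arrays did not overlap for Il11, as for 3.95% of all genes; the ranges of the other 9 members overlapped. Stat3 was 0.24 higher (95% interval 0.03 to 0.44, unadjusted p = 0.0280, adjusted p = 0.645). For the ligands Lif and Il6 the difference after E2 was 0.19 (95% interval -0.24 to 0.63) and 0.42 (-0.52 to 1.35), and for Osm -0.17 (-0.87 to 0.53). Among the receptors it was -0.35 for Lifr (-0.75 to 0.05), 0.32 for Il6ra (-0.10 to 0.74), 0.11 for Il11ra1 (-0.16 to 0.37) and 0.26 for Osmr (-0.05 to 0.56).

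Whether the Il11 difference was called depended on the setting, while its size moved little. It lay between 0.87 and 1.09 under all 30 alternatives. It passed with normexp and quantile normalization (0.91, adjusted p = 0.00508), in the authors' deposited table (0.89, 0.0488), with a trended robust prior (0.98, 0.0393) and without WT PLB replicate 3 (0.98, 0.0265). It missed with quantile normalization alone (0.92, 0.187), with slide as a block (0.98, 0.148), within slide 1 (0.87, 0.620) and within slide 2 (1.09, 1).

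After PLB, 0 of 10 members and 0% of all genes were called between the genotypes, and 638 genes (2.47%) but 0 members had an unadjusted p under 0.05. Il11 differed by -0.16 log2 units (95% interval -0.46 to 0.14), Lif by -0.30 (-0.74 to 0.13) and Osmr by -0.20 (-0.50 to 0.10). The ranges of Arg260 PLB and WT PLB overlapped for all 10 members, whereas 1.66% of all genes had separate ranges.

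The difference between the E2 responses, tested as an interaction, was called for 0 members and 0% of all genes; 961 genes (3.72%) and 2 members, Il11 and Osmr, had an unadjusted p under 0.05. The Il11 response was 1.14 log2 units larger in Arg260 (SE 0.20, 95% interval 0.72 to 1.56, unadjusted p = 4.75e-05, the second smallest of all genes, adjusted p = 0.615). The Osmr response was 0.46 larger (95% interval 0.03 to 0.88, unadjusted p = 0.0377, adjusted p = 0.9998). For Lif the difference was 0.50 (-0.12 to 1.11) and for Stat3 0.27 (-0.02 to 0.56).

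**Figure D5:**
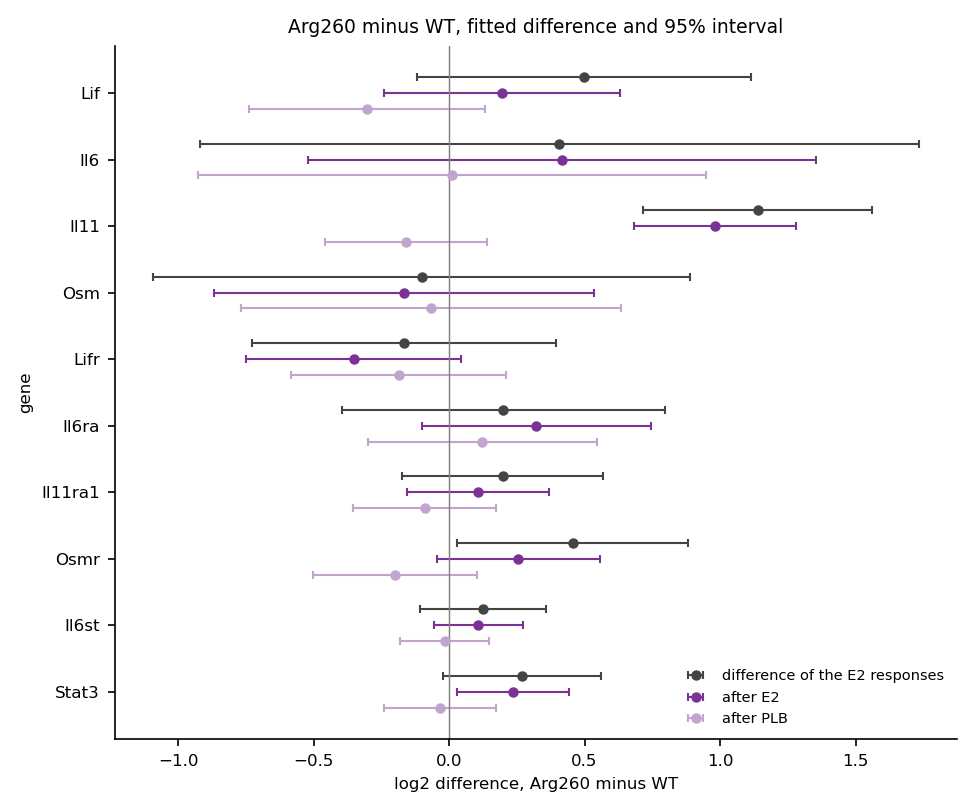
Arg260 minus WT in log2 units (x axis, fitted difference and 95% interval) for the 10 genes (y axis): the difference of the E2 responses, the difference after E2 and the difference after PLB. Il11 has the only interval after E2 that starts above 0.5 (0.68 to 1.28), and its PLB interval (-0.46 to 0.14) spans 0.

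Of 12 other ligands and receptors of the family or related to it, 11 were tested. E2 raised 5 and lowered 4 in Arg260, and raised 4 and lowered 3 in WT, where 64.3% and 63.5% of all genes were called in Arg260 and WT; the WT count is near that share. The leptin receptor Lepr, which also signals through Stat3, fell by 1.80 in Arg260 and 1.93 in WT. Il31ra, which pairs with Osmr in the receptor for interleukin-31, rose by 1.47 and 1.0. Ebi3, a subunit of interleukin-27, fell by 1.45 in Arg260 and had a change of -0.83 in WT that was not called; in Arg260 its highest adjusted p over 4 other scalings was 0.0609.

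Of 7 kinases, phosphatase and Stat genes, 4 were called higher and 1 lower in Arg260, and 4 higher and 2 lower in WT. The Arg260 count is near the 64.3% of all genes called there, 33.6% higher and 30.7% lower. For WT the share of all genes was 63.5%, 31.9% higher and 31.7% lower. In WT quantile normalization gave 3 higher and 3 lower, and 3 higher and 1 lower were called in the authors' deposited table. Stat5a, a Stat activated by prolactin and other cytokines, rose by 2.70 in both genotypes. The family's Janus kinases split: Jak2 rose by 1.02 in Arg260 and 1.15 in WT, Jak1 rose by 0.75 and 0.67, and Tyk2 fell by 1.59 and 1.70.

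Of 7 inhibitors of the pathway, 5 were called higher and 1 lower in each genotype, beside 33.6% of all genes higher in Arg260 and 31.9% in WT; quantile normalization gave 5 and 2 in each. Socs3, which binds Il6st and blocks the kinases, rose by 4.46 in Arg260 and 4.56 in WT, and Socs1 rose by 4.32 and 4.49. The phosphatase Ptpn1 rose by 1.65 and 1.93, and Cish, an inhibitor of Stat5 signalling, by 0.99 and 1.73.

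Of 15 genes known as Stat3 targets, 14 were called higher in Arg260 and 13 in WT, and 0 lower, with a median log2 change of 2.35 and 1.96. Of all genes, 33.6% were called higher in Arg260 and 31.9% in WT. Quantile normalization left 12 and 11 of the targets higher, and the authors' deposited table gave 12 higher and 1 lower in Arg260 and 11 and 1 in WT. Timp1, an inhibitor of matrix proteases, rose by 3.20 in Arg260 and 2.75 in WT, Bcl3, an NF-kappaB cofactor, by 2.91 and 3.11, and the transcription factor Cebpb by 3.00 and 2.85. Socs3 belongs to this list as well. The targets not called were Saa3 in both genotypes (-0.19 in Arg260 and -0.45 in WT) and Hp in WT (0.14, against 1.71 in Arg260, where it was called); the difference between the 2 Hp responses did not pass (1.57, adjusted p = 0.9998). Many of these genes are also targets of other pathways, and the list was drawn up with results of these arrays known. The genes named as called from these 4 lists kept their direction under all 4 other scalings of the arrays. Between genotypes, 0 genes of these lists were called in any of the 3 comparisons.

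Some markers of other cell types were called after E2. Of all genes, 33.6% were called higher and 30.7% lower in Arg260, and 31.9% and 31.7% in WT. The neutrophil and macrophage counts, and the adipocyte count in Arg260, lie near or under those shares. The mean log2 level of 6 stromal markers was 4.02 to 4.59 in Arg260 E2 and 4.71 to 5.48 in Arg260 PLB, and 3.79 to 4.88 in WT E2 and 4.55 to 5.42 in WT PLB, with 3 of 6 called lower in each genotype and 5 of 6 with quantile normalization or in the authors' deposited table. That of 6 neutrophil markers was -1.87 to -1.13 in Arg260 E2 and -2.73 to -1.98 in Arg260 PLB, and -1.86 to -0.14 in WT E2 and -2.25 to -1.28 in WT PLB. Of these 6, only Ly6g (1.60 and 1.38) and S100a8 (1.61 and 1.21) were called, both higher in Arg260 and WT. Under 4 other scalings in Arg260, S100a9 and Retnlg ran higher, Mpo ran lower (-0.71 to -0.24) and Csf3r changed sign. In WT, S100a9 and Retnlg ran higher under those scalings, while Mpo and Csf3r changed sign. The 6 macrophage markers averaged -0.51 to 0.17 in Arg260 E2 and -0.39 to 1.40 in Arg260 PLB, and -0.89 to -0.46 in WT E2 and -0.26 to -0.02 in WT PLB, with 1 called higher and 2 lower in Arg260 and 1 and 1 in WT; Cd163 was well above background on only 4 of 16 arrays. The 4 adipocyte markers tested averaged -2.66 to 1.06 in Arg260 E2 and 0.49 to 2.10 in Arg260 PLB, and -5.20 to -0.09 in WT E2 and 1.05 to 2.98 in WT PLB, with 1 of 4 called lower in Arg260 and 4 of 4 in WT. The macrophage and adipocyte ranges of Arg260 E2 and Arg260 PLB overlap, as do the stromal and neutrophil ranges of WT E2 and WT PLB. Of 4 glandular markers, 1 was called higher in Arg260, and 1 higher and 2 lower in WT. Of 7 epithelial markers, 3 were higher and 1 lower in Arg260, and 1 and 1 in WT. Of 5 smooth muscle markers, 1 was higher in Arg260 and 3 in WT. With quantile normalization, 0 epithelial markers were higher and 2 lower, and 1 smooth muscle marker was higher and 1 lower, in each genotype. Markers of endothelium, eosinophils, mast cells, T cells and B cells are not described here. The part of these shifts in the changes of Il6, Osmr, Lifr and the other members was not tested.

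Genes whose values followed a member most closely over the 16 arrays are given as a description, since all share the E2 and PLB split. Il11 was most like Mylk2 (r = 0.996), the skeletal muscle myosin light chain kinase, and Surf6 (r = 0.995), a nucleolar protein. Lif was most like Entpd1 (r = 0.989), an enzyme that breaks down extracellular ATP, and Sfn (r = 0.988). Il6 was most like Socs4 (r = 0.99), Osmr like Ddx3x (r = 0.992), and Stat3 like Lnx2 (r = 0.996). The Il6 correlation includes PLB readings that were all below background, so it reflects little beyond the step between E2 and PLB. Lifr was most like Pla2g5 (r = 0.967), a secreted phospholipase. The members with no called change had looser nearest genes, at 0.809 for Osm, 0.860 for Il6ra and 0.865 for Il11ra1.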

How the data were processed

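Uterine RNA of 16 samples was measured on 1-colour Agilent 60-base arrays, 4 samples a group, on 2 slides with 2 arrays of each group per slide. Per the submitters' processing notes and the scanner files' headers, the authors extracted spot intensity with Agilent Feature Extraction 10.10.1.1; the processed signal is background-subtracted and not normalized between arrays. A table of 37585 probes that the authors deposited is on a log2 scale with all 16 columns sharing 1 distribution (median 8.69), with no gene centring; its background correction is not given in the sources used here, and it was an alternative only.

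Groups came from the sample labels. Log2 of the processed intensity minus each array's 75th percentile was computed, control and outlier-flagged spots were left out and spots of a probe averaged. The 38680 probes well above background on at least 4 of 16 arrays were kept, and the probe with the highest mean stood for a gene (25860 genes). Names were updated through the GRCm38.p6 table (27235 probes by accession, 3581 by symbol, 565 by synonym; 24300 kept the file's name); probe positions are on mm9. Group means were fitted with limma 3.58.1 in R 4.3.3 (12 residual degrees of freedom), with 5 two-sided contrasts adjusted by Benjamini-Hochberg over all genes. For Il6, the E2 mean was set against, per PLB array, the lowest signal of any probe that counted as well above background, or the probe's own where that was higher. The fit was tested on simulated data for E2 against PLB in WT over 25860 genes, with 100 genes changed at each size. It recovered 74% of changes of 1 log2 unit and 94% of changes of 2, with 6 false calls. Far more genes, 16434, were called for E2 in the WT arrays themselves, so recovery there may differ.

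The members, gene lists and tests were chosen with earlier results of these data known. All 10 members are described; of each other list, at most the 4 called genes with the largest E2 change are named, and 2 most-correlated genes per member were listed. One gene that this rule names is not reported here. Alternatives changed the background correction, the scaling, the filter, the probe rule, outlier spots, blocks, the prior, the slides and single arrays. The number of arrays limits the precision.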

Additional observations from a re-analysis of the deposited data

Results flagged for a closer look

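Of the 52 groups of 4 arrays (4 groups for each of the 13 probes), 3 held an array far from its companions by Dixon's test; chance flags about 1 in 20 such groups. Il6st read 3.74 in WT PLB replicate 2, against 3.95 to 3.99 in the other 3 arrays of that group. Osmr read 3.81 in WT E2 replicate 1, against 3.16 to 3.27 in its companions. The second Stat3 probe read -0.16 in the same WT E2 replicate 1, against -0.65 to -0.60 in the others. All values are log2 over the array's 75th percentile.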

How the results depend on the processing

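Over 30 alternatives, members called for the E2 effect numbered 6 to 8 in Arg260 and 5 to 8 in WT, and members called for the difference of the E2 responses and for Arg260 against WT in PLB numbered 0 under each. Lif, Il6, Il11, Osmr and Stat3 were called higher in both genotypes under all 30, Il6 always against PLB readings below background. Il6st turned to -0.146 in Arg260 and -0.180 in WT with normexp and quantile normalization, to -0.118 and -0.181 with quantile normalization, and to -0.131 and -0.154 in the authors' deposited table. Il11ra1 in WT turned to -0.403, -0.374 and -0.413 under the same settings. The cause was not tested. Median scaling moved the median of all genes to 0.15 in Arg260 and 0.12 in WT. For Arg260 against WT in E2, 0 genes were called as reported, 3 with normexp and quantile normalization, 1 with quantile normalization, 2 in the deposited table and 2 with a trended robust prior; Il11 was among them, as the 1 member called, in each but quantile normalization. Leaving out single replicates gave 0 to 2 genes and 0 to 1 members there (2 genes without Arg260 E2 replicate 3, 1 gene, Il11, without WT PLB replicate 3). Same-numbered samples of different groups did not clearly deviate together (r of -0.11 to 0.26, over 0.1 in 3 of 24 pairs). Outside their group, 5 of 16 arrays correlated best with their own number. The main fit therefore assumed no pairing by number, although such correlations cannot exclude one. With the replicate block, 7 members were still called for E2 in each genotype. Il11 in Arg260 against WT after E2 then had an adjusted p of 0.288. Probes near background, Osm and Il6 after PLB, limit what can be said of those levels.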

Other observations

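Genes that act around Lif at implantation moved in both directions after E2. Of 16 listed, 14 were tested. In each genotype 7 were called higher and 5 lower, while quantile normalization gave 6 and 6 in Arg260 and 7 and 7 in WT. Of all genes, 64.3% were called in Arg260, 33.6% higher and 30.7% lower, and 63.5% in WT, 31.9% higher and 31.7% lower. Calls in both directions were thus also seen over all genes. Wnt4, a ligand of the decidual response, rose by 3.31 log2 units in Arg260 and 3.55 in WT, and the progesterone receptor Pgr rose by 2.37 and 2.12. Hbegf, an EGF family ligand that meets the attaching embryo, rose by 1.69 and 1.93. Ihh, the epithelial hedgehog ligand, rose by 1.40 and 1.82 (adjusted p = 0.0445 and 0.0122); in Arg260 it was no longer called under at least 1 other scaling of the arrays (highest adjusted p = 0.0712). None of the 14 was called between the genotypes in any comparison.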
